A study of Homo sapiens with 12 samples.

Results

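The BCL2 family and its partner AVEN were followed here as 10 genes: BCL2, BCL2L1, BCL2L2, MCL1, BCL2L11, BID, BAD, BMF, BAK1 and AVEN. They were chosen by gene symbol, and all 10 had a row among the 60664 genes of the deposited count table and passed the filter on low counts in every comparison. The libraries were RNA-seq of MDA-MB-231, an established human triple-negative breast cancer cell line with mesenchymal features. The study examined the effect of hypoxia on these cells and, separately, of knocking out CCAR2, the gene for DBC1, a protein whose stability in low oxygen it investigated. There were 3 groups of 4 libraries: wild-type (WT) cells in normoxia (0 h of hypoxia), WT cells after 24 h of hypoxia, given in the study's methods as 1% O2, and CCAR2 knockout (KO) cells in normoxia at 0 h. No library of KO cells in hypoxia was analysed here. KO cells were made with a lentiviral CRISPR vector carrying a guide against CCAR2; the sources do not say whether they were 1 clone or a pool. All cells were MDA-MB-231, so each value describes a single line. The study's methods mention biological replicates but with fewer per condition than the 4 libraries of a group, and nothing in the labels says that these came from separate cultures, so p-values measure the spread between these libraries, which may be technical.

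Proteins of the BCL2 family decide whether the outer mitochondrial membrane is opened during apoptosis. The guardians (BCL2, BCL-xL, BCL-w and MCL1) hold the effectors BAX and BAK in check, and BH3-only proteins such as BIM, BID, BAD and BMF occupy the guardians or activate the effectors. Once the membrane opens, cytochrome c leaves the mitochondrion and assembles with APAF1 into the apoptosome, which activates caspase-9, and AVEN can bind both BCL-xL and APAF1.

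Counts per library summed to between 153904088 and 213743693 in WT normoxia, between 76384973 and 195621872 in WT hypoxia and between 68599412 and 152328450 in KO cells. The targeted gene checked the KO label: CCAR2 stood at 146 ± 3.11 CPM (counts scaled to the size of the library, SD, n = 4) in WT normoxia, 149 ± 4.95 CPM in WT hypoxia and 57.8 ± 2.81 CPM in KO cells, so that transcript remained in the KO libraries. The 6 hypoxia control genes (CA9, NDRG1, VEGFA, SLC2A1, BNIP3 and BNIP3L) were all called higher in hypoxia, by 0.62 to 6.21 on the log2 scale. The 8 mesenchymal markers of the line (VIM, CD44, AXL, EGFR, ZEB1, FN1, TGFBI and CAV1) were all present. As means of WT normoxia they ran from 62.6 CPM for ZEB1 to 5103 CPM for VIM. ZEB1 was called lower after hypoxia (log2 fold change -0.52). In KO against WT cells FN1 was called higher (1.56) and TGFBI lower (-0.53). Of the luminal markers, ESR1 stayed at or below 0.470 CPM and CDH1 at or below 0.260 CPM in all 12 libraries. PGR stayed at or below 0.174 CPM. The epithelial keratin KRT19 was present at 483 to 796 CPM as group means. EPCAM, ERBB3, GATA3 and FOXA1 were also present, at 14.4, 10.7, 5.93 and 1.34 CPM as means of WT normoxia. The largest disagreement of counts between replicates (chi-square per degree of freedom 135) was between WT hypoxia replicates 2 and 3. The effect of leaving out replicate 2 is given for AVEN, BCL2, TNFRSF10B and TNFRSF1A, and not for every result.

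Calls required an adjusted p under 0.05 in edgeR's quasi-likelihood test (Benjamini-Hochberg adjustment over all genes tested) together with a log2 fold change of at least 0.5 in either direction. By that rule no member was called after hypoxia, and 3 were called in KO against WT cells: BCL2 and AVEN fell and BMF rose. The stretches of 250 bases before the RefSeq start of these 3 genes (GRCh38.p14) are shown. Each was searched on both strands for the core of the hypoxia response element, ACGTG or GCGTG, since hypoxia was a condition of the study. The calls of these 3 genes were between groups both kept in normoxia, and a link between calls and matches was not tested. Capitals mark a match; the E-box CACGTG holds the core on both strands and so counts there as 2 matches. The sequences run 5′ to 3′ on the strand of the gene, which is the minus strand for all 3.

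BCL2, chr18:63319770-63320019, minus strand: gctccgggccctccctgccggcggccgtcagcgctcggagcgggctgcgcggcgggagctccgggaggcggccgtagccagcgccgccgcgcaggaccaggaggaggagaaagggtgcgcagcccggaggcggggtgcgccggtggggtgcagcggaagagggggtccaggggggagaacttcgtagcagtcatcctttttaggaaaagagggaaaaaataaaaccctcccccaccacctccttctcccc

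AVEN, chr15:34039205-34039454, minus strand: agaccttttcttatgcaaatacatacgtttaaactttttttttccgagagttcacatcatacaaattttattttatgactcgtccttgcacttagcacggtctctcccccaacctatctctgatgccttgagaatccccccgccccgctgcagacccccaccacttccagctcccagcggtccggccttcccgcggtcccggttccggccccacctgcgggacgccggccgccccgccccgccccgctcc

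BMF, chr15:40108880-40109129, minus strand: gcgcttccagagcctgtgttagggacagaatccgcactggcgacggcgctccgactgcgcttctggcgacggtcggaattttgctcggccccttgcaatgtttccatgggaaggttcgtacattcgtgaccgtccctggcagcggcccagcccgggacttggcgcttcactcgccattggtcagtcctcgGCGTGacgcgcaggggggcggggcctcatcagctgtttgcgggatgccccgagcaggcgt

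The window of BMF shown held 1 core, 60 bases before the start, and those of BCL2 and AVEN held 0. BMF has another RefSeq start, whose window (chr15:40106967-40107216) is not shown and held 0. A core was present in 43.2% of all 35116 windows of this length, or 15172 of them. RefSeq windows were found for 8 of the 10 members, 15 windows in all, since BID, BMF, BCL2L1 and BAD have several starts. Of these, 9 windows belonging to BCL2L1, BCL2L11, BID, BAD and BMF held a core. Several windows of BID overlap each other, as do those of BAD, so the same core is counted in more than 1 window. These are matches of letters and were not tested as binding sites.

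Levels of the members could be set beside each other once divided by the length of their merged exons (GENCODE v29, GRCh38). In WT normoxia BCL2L1, which encodes BCL-xL, was the most abundant at 197 ± 3.71 CPM per kb (SD, n = 4), higher than 99.2% of the 21818 genes ranked. MCL1, a short-lived guardian, followed at 104 ± 1.47 CPM per kb and ranked above 98.2% of genes. BAD, a BH3-only protein that is held inactive by 14-3-3 proteins when phosphorylated, stood at 44.2 ± 4.804 CPM per kb. BAK1, which encodes the effector BAK, stood at 31.0 ± 1.48 CPM per kb. These 4 genes kept that order in all 12 libraries.

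The other 6 members were lower. AVEN stood at 11.1 ± 0.558 CPM per kb, BCL2L2 (BCL-w) at 9.21 ± 0.513, and BID, which is activated by caspase-8, at 6.35 ± 0.370. The order of AVEN and BCL2L2 held in only 5 of 12 libraries, so that pair is not ordered across groups, and BCL2L2 lay above BID in 11 of 12. BCL2L11, which encodes BIM, stood at 1.98 ± 0.143 CPM per kb, BCL2 itself at 1.00 ± 0.0612, and BMF, which is tethered to the dynein light chain DLC2, at 0.297 ± 0.131. BCL2 lay above 45.4% of the genes ranked and BMF above 30.7%. With the length of the longest transcript in place of merged exons, only BCL2L2 and BID exchanged places. The levels themselves depended on that choice. In WT normoxia BID became 11.3, BCL2 1.58 and BCL2L1 250 CPM per kb, while BAK1 stayed at 31.0. Shares and ratios below use merged exons, and their SDs do not include the choice of length.

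**Figure D1:**
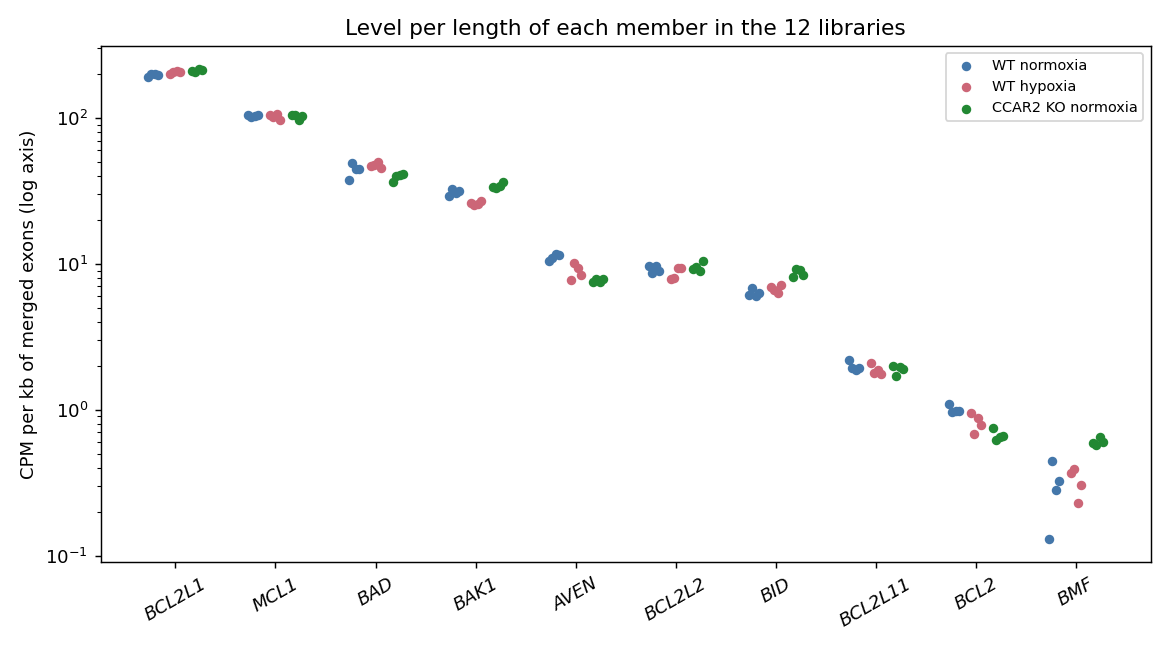
CPM per kb of merged exons (log axis) for the 10 members, ordered from highest to lowest in WT normoxia. Each point is 1 library and the colors are the 3 groups; BCL2L1 and MCL1 lie above 90 CPM per kb in every library and BMF lies lowest.

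Summed per length over the 4 guardians, BCL2L1 made up 63.4% ± 0.692 (SD, n = 4) of the transcript level in WT normoxia, 64.8% ± 0.984 in WT hypoxia and 65.2% ± 1.201 in KO cells. MCL1 made up 33.4%, 32.3% and 31.7% in the same order, and BCL2L2 2.97%, 2.72% and 2.94%. BCL2 made up 0.323% ± 0.0228, 0.260% ± 0.0353 and 0.207% ± 0.0179. BCL2 had the smallest share in each group. Per length there were 197 ± 14.8 units of BCL2L1 per unit of BCL2 in WT normoxia, 253 ± 38.7 in WT hypoxia and 316 ± 26.9 in KO cells.

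The first comparison asked which members responded to 24 h of hypoxia in WT cells. None of the 10 was called in either direction, beside 7.26% of the 21776 genes tested (5.83% higher and 1.43% lower). DESeq2 and limma-voom, with the same thresholds, also called 0 members. At an unadjusted p under 0.05 edgeR had 0 members higher and 3 lower: BCL2, BAK1 and AVEN. By the adjusted p alone, with no limit on the fold change, 0 were higher and 2 lower (BAK1 and AVEN), beside 11.6% of all genes higher and 12% lower, or 23.5% in all. The members' median size of log2 fold change was 0.10, against 0.23 over all genes tested.

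AVEN was measured at 18.8, 19.9, 21.0 and 20.8 CPM in WT normoxia and at 14.1, 18.5, 17.0 and 15.1 CPM in WT hypoxia. Every hypoxia library lay below every normoxia library, by a narrow margin for hypoxia replicate 2. The log2 fold change was -0.32 (SE 0.09, adjusted p = 0.0204, edgeR). Leaving out that library gave -0.40 (adjusted p = 0.00337), whereas leaving out normoxia replicate 3 or 4 or hypoxia replicate 1 or 4 gave adjusted p values of 0.0572 to 0.0703.

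BAK1 was measured at 64.1, 71.9, 68.2 and 69.7 CPM in WT normoxia and at 57.6, 56.3, 57.2 and 59.6 CPM in WT hypoxia. The hypoxia libraries lay close together and below all of normoxia. Its log2 fold change was -0.26 (SE 0.05, adjusted p = 0.00439, edgeR), a level 16.2% lower. BAX, the other main effector, was not called, with 106 CPM in WT normoxia and 111 CPM in WT hypoxia (log2 fold change 0.06, adjusted p = 0.563). Per length, the level of BAK1 relative to BAX was 0.761 ± 0.0409 in WT normoxia and 0.609 ± 0.0384 in WT hypoxia (SD, n = 4).

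BCL2 was measured at 12.9, 11.3, 11.6 and 11.5 CPM in WT normoxia and at 11.1, 8.07, 10.3 and 9.32 CPM in WT hypoxia. The groups did not overlap, but the nearest libraries differed by less than the spread within hypoxia. The log2 fold change was -0.29 (SE 0.10, 95% interval -0.51 to -0.07) with an adjusted p of 0.0613 (edgeR). The adjusted p was under 0.05 with DESeq2 (0.0236), limma-voom (0.0323), all 12 libraries in 1 fit (0.0391), the replicate block (0.0299) and without hypoxia replicate 1 (0.0321). Over all 18 alternatives the adjusted p ran from 0.0236 to 0.150, the highest without normoxia replicate 1, and without hypoxia replicate 2, the lowest of its group, the log2 fold change was -0.22 (adjusted p = 0.0907).

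The remaining 7 members gave log2 fold changes between -0.10 and 0.11 after hypoxia, none past the adjusted p. MCL1 was measured at 455, 444, 452 and 459 CPM in WT normoxia and at 460.4, 442, 464 and 425 CPM in WT hypoxia, with the groups interleaved and a 95% interval of -0.13 to 0.08 on the log2 scale. BCL2L1 was measured at 634, 658, 660.3 and 655 CPM in WT normoxia and at 660.4, 689, 696 and 681 CPM in WT hypoxia, with 660.3 and 660.4 the nearest pair (log2 fold change 0.06, adjusted p = 0.430). For BMF the interval was wide, from -0.58 to 0.81, and WT normoxia itself ran from 0.711 to 2.44 CPM. The 4 members that did not overlap, 1 higher and 3 lower, stood beside 26.4% of all genes tested (13.7% higher and 12.7% lower), and each had an exact two-sided permutation p of 0.0286, the smallest that 4 against 4 libraries allow.

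**Figure D2:**
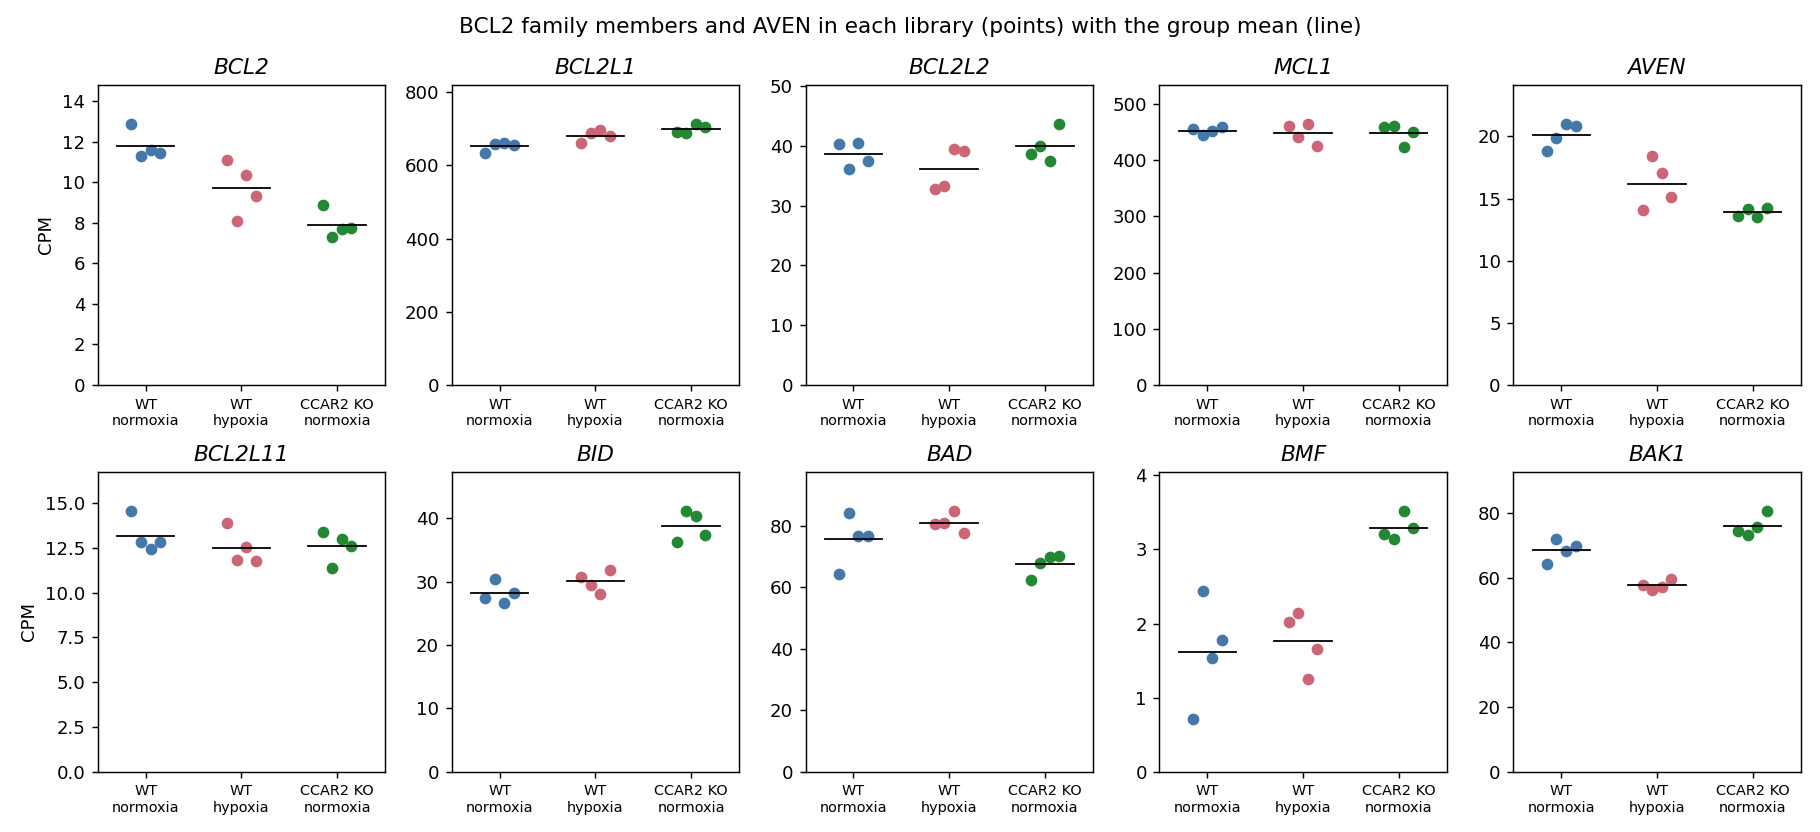
CPM of each member in the 12 libraries, with 1 panel per gene and an axis from 0. Points are libraries and the line is the mean of 4; BCL2 and AVEN step down from WT normoxia to KO cells, and BMF and BID lie higher in KO cells than in either WT group.

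The second comparison asked how KO cells differed from WT cells when both were kept in normoxia. BMF rose and BCL2 and AVEN fell, so that 1 member was called higher (6.73% of the 21410 genes tested were) and 2 lower (2.94% were), 3 in all beside 9.67%. Without a limit on the fold change, BID and BAK1 joined the higher members, giving 3 higher beside 14.9% of all genes and 2 lower beside 15.4%, or 5 in all beside 30.4%. The members' median size of log2 fold change was 0.16, against 0.22 over all genes tested. This comparison and the first share the 4 WT normoxia libraries.

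BCL2, the guardian for which the family is named, was measured at 8.88, 7.32, 7.67 and 7.75 CPM in KO cells, against the WT normoxia values of 11.3 to 12.9 CPM given above. All 4 KO libraries lay below all 4 WT libraries. The log2 fold change was -0.58 (SE 0.08, 95% interval -0.75 to -0.40, adjusted p = 1.8e-04, edgeR), which is 33.0% lower. AVEN was measured at 13.6, 14.1, 13.6 and 14.3 CPM in KO cells, against 18.8 to 21.0 CPM in WT normoxia. The KO values were close together (SD 0.357 CPM), and the groups were far apart. AVEN's log2 fold change was -0.53 (SE 0.06, 95% interval -0.67 to -0.40, adjusted p = 3.6e-05), which is 31.0% lower. Both intervals reach inside the limit of 0.5, so that part of each lies below the size used for a call.

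BMF, a BH3-only protein known for its role in death after loss of attachment to the matrix, was measured at 3.21, 3.14, 3.52 and 3.28 CPM in KO cells and at 0.711, 2.44, 1.54 and 1.77 CPM in WT normoxia. The KO libraries were tight and lay above every WT library, while the WT libraries spread widely. These CPM rest on 219 to 542 counts per KO library and 128 to 438 counts per WT normoxia library. The log2 fold change was 1.02 (SE 0.27, 95% interval 0.43 to 1.62, adjusted p = 0.0129, edgeR), or 2.03-fold. WT normoxia replicate 1 was the lowest, and without it the log2 fold change was 0.78 (adjusted p = 0.00377).

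BID was measured at 36.2, 41.2, 40.4 and 37.4 CPM in KO cells and at 27.4, 30.5, 26.7 and 28.3 CPM in WT normoxia, with no overlap. Its log2 fold change of 0.46 (SE 0.06, adjusted p = 1.1e-04) fell just under the limit on the fold change. BAK1 was measured at 74.4, 73.2, 75.6 and 80.6 CPM in KO cells, again without overlap with WT normoxia. For BAK1 the log2 fold change was 0.15 (SE 0.05, adjusted p = 0.0307). The adjusted p of BAK1 was above 0.05 with no filter on low counts (0.122) and without any 1 of WT normoxia replicate 1 (0.0667) or 3 (0.0920) or KO replicate 3 (0.0590) or 4 (0.116).

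BCL2L1 was measured at 691, 689.5, 713 and 706 CPM in KO cells, all above the WT normoxia libraries, but the step was small (log2 fold change 0.10, SE 0.04, adjusted p = 0.0578). BAD was measured at 62.2, 67.8, 69.7 and 70.3 CPM in KO cells and at 64.4, 84.2, 76.7 and 76.7 CPM in WT normoxia, where replicate 1 fell among the KO values (log2 fold change -0.16, adjusted p = 0.116). MCL1 had a mean of 448 ± 17.5 CPM in KO cells and 453 ± 6.41 CPM in WT normoxia, with a 95% interval of -0.10 to 0.08 for the log2 fold change. BCL2L2 and BCL2L11 had log2 fold changes of 0.05 and -0.07, each with overlapping groups. In all, 6 members did not overlap (4 higher and 2 lower), beside 30.8% of the genes tested (15.6% higher and 15.2% lower).

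Among the 4 BH3-only members, per length, BID made up 12.1% ± 0.878 in WT normoxia, 12.01% ± 0.926 in WT hypoxia and 17.2% ± 0.785 in KO cells (SD, n = 4). BMF made up 0.547% ± 0.201, 0.577% ± 0.135 and 1.19% ± 0.0592. BAD was the bulk of the sum in each group, at 83.6%, 84.1% and 77.9%. BMF had the smallest share in each group, KO cells included.

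**Figure D3:**
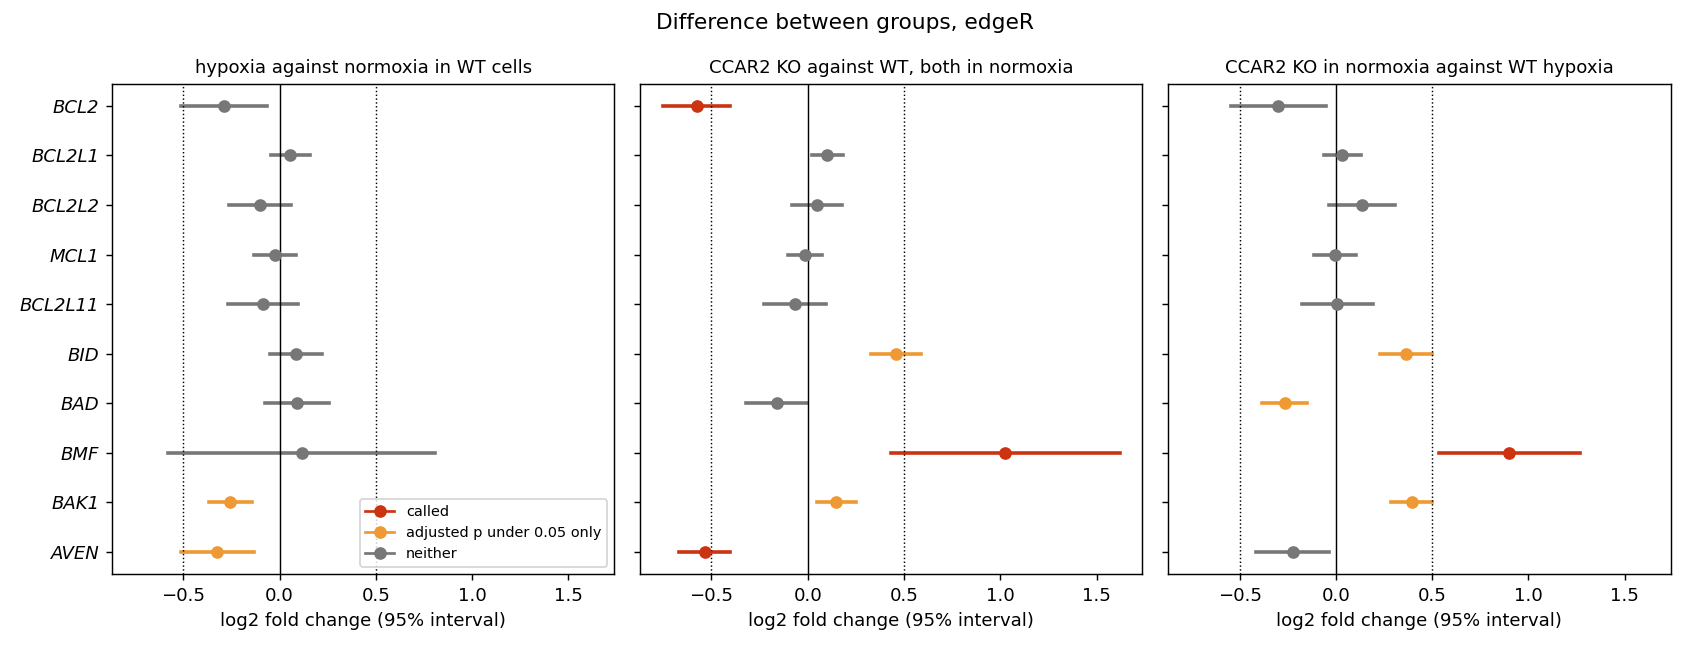
Log2 fold change of each member (points) with its 95% interval (bars) in the 3 comparisons; dotted lines mark a size of 0.5. In the middle panel BCL2 and AVEN lie left of -0.5 and BMF right of 0.5, and in the left panel no member passes both thresholds.

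The third comparison set KO cells in normoxia against WT cells in hypoxia, groups that differ in both genotype and oxygen. BMF was the only member called, 1 higher (7.08% of the 21158 genes tested were) and 0 lower (7.88% were). WT hypoxia libraries held 2.02, 2.14, 1.25 and 1.66 CPM of BMF, all below the KO libraries, and the log2 fold change was 0.90 (SE 0.17, 95% interval 0.53 to 1.27, adjusted p = 0.00145, edgeR). By the adjusted p alone, BAK1 and BID also lay higher (log2 fold changes 0.39 and 0.36) and BAD lower (-0.27), giving 3 members higher beside 17.1% of all genes and 1 lower beside 17.8%, or 4 in all beside 34.9%. BAD was measured at 80.5, 80.8, 84.8 and 77.7 CPM in WT hypoxia, above all 4 KO libraries. These 4 members were also the ones that did not overlap, beside 35.9% of all genes (18.2% higher and 17.8% lower).

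BCL2 and AVEN, the members lower in KO cells, gave overlapping values in KO cells and WT hypoxia. For BCL2 the log2 fold change between these groups was -0.30 (95% interval -0.54 to -0.05, adjusted p = 0.0589). For AVEN it was -0.22 (95% interval -0.41 to -0.03, adjusted p = 0.0667). Against the shared WT normoxia libraries, BCL2 had log2 fold changes of -0.29 in hypoxia and -0.58 in KO cells, and AVEN -0.32 and -0.53. BAK1 differed in sign between them, with -0.26 in hypoxia and 0.15 in KO cells, and the direct test between KO cells and WT hypoxia gave 0.39 (SE 0.05, adjusted p = 7.9e-05).

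BMF had the largest called change, and the genes whose log2 CPM followed it most closely over the 12 libraries were FGFBP1 (Pearson's r = 0.950), S100A3 (0.923) and PECAM1 (0.922), of 13682 genes compared. All points share the 3 groups, and the values are a description.

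Some members share exon bases with other genes, and the sources do not state whether counting used the strand. BCL2L2 (chr14:23298790-23311759, plus strand) shares 813 exon bases with BCL2L2-PABPN1, a readthrough transcript on the same strand that joins it to the gene for a poly(A)-binding protein. The readthrough was listed at 8.02, 43.7, 5.78 and 35.3 CPM in WT normoxia alone, a swing that cuts across the group, while BCL2L2 stayed between 32.8 and 43.6 CPM over all 12 libraries. How reads were divided between the pair was not tested, so values of BCL2L2 are uncertain.

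**Figure D4:**
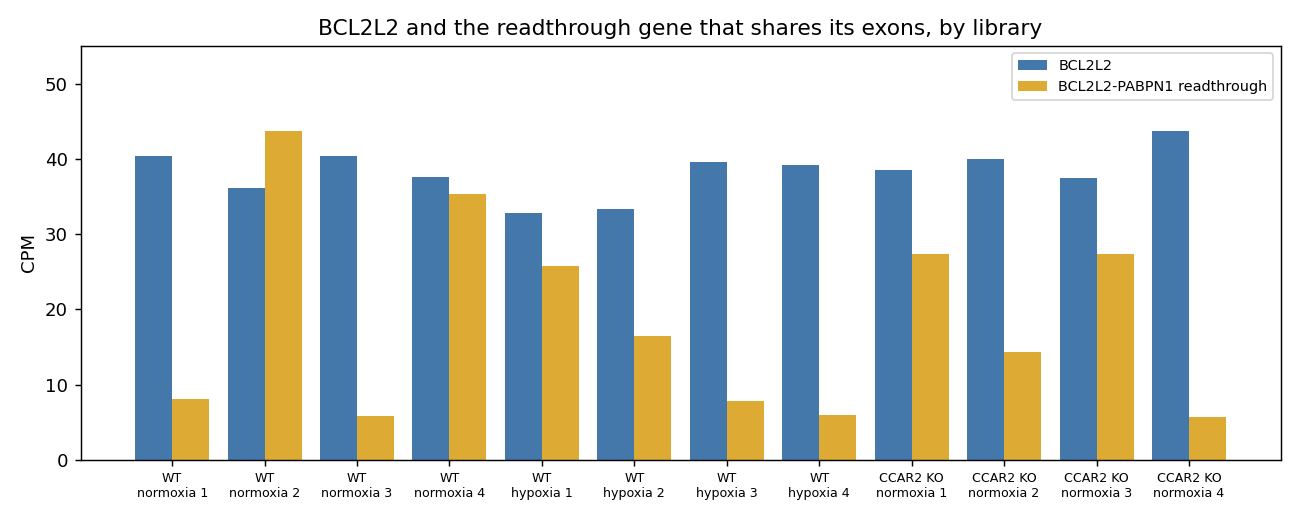
CPM of BCL2L2 and of the readthrough gene BCL2L2-PABPN1 in each of the 12 libraries, as bars from 0. BCL2L2 is even, at 32.8 to 43.6 CPM, while the readthrough ranges from 5.73 to 43.7 CPM within the groups.

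On the opposite strand, BCL2L11 (chr2:111119378-111168447) shares 727 exon bases with MIR4435-2HG, a long noncoding RNA at 76.3 to 86.0 CPM, well above BCL2L11 itself at 11.4 to 14.6 CPM. BAD (chr11:64269830-64284704) shares 404 exon bases with GPR137 at 28.0 to 38.2 CPM, and BCL2L1 (chr20:31664452-31723989) shares 1424 with ABALON at 3.88 to 14.4 CPM. BMF (chr15:40087890-40108892) shares 461 with BMF-AS1, which was listed at 0 in every library. BCL2 (chr18:63123346-63320128) and AVEN (chr15:33866227-34039176) share no exon bases with another annotated gene, although CHRM5 lies opposite AVEN. The counts pool all transcripts of a gene, so the long and short products of BCL2L1 and MCL1, which can act in opposite directions, cannot be told apart.

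The wider apoptosis pathway was described by lists of other genes. Of 13 other BCL2 homologues, 10 were tested after hypoxia and in KO against WT cells, and 0 were called in either, beside 7.26% and 9.67% of all genes. BAX did not pass the adjusted p in any comparison. BOK, a BAX-like homologue, was called only between KO cells and WT hypoxia, where it was lower (log2 fold change -0.54). Against WT normoxia BOK passed the adjusted p but not the limit on the fold change. It was higher after hypoxia (0.22, adjusted p = 0.00725, edgeR) and lower in KO cells (-0.31, adjusted p = 1.4e-04). PMAIP1, which encodes the BH3-only protein NOXA, had 62.5 CPM in WT normoxia, 49.6 in WT hypoxia and 68.8 in KO cells. Its log2 fold change after hypoxia was -0.34 (adjusted p = 0.00342), under the limit of 0.5. BCL2A1, BCL2L10 and BCL2L14 were too low to be tested in those 2 comparisons.

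Of 12 genes of the apoptosome and the caspases below it, 0 were called after hypoxia and 1 was called in KO cells, a share close to the 9.67% of all genes. That was CYCS, which encodes cytochrome c, with 187 CPM in WT normoxia and 124 CPM in KO cells (log2 fold change -0.59, adjusted p = 1.95e-05, edgeR). CYCS stood at 146 CPM in WT hypoxia, where replicate 2 held 182 CPM and the other 3 held 132 to 135. APAF1 had a log2 fold change of -0.35 after hypoxia (adjusted p = 0.0152), past the adjusted p but not the limit on the fold change. Its lowest library in WT hypoxia was replicate 2 at 49.7 CPM, and its highest held 66.5 CPM. Of 7 inhibitor of apoptosis (IAP) genes, 0 were called after hypoxia (7.26% of all genes were) and 1 was called in KO cells (9.67% were): BIRC3, which encodes cIAP2, rose from 24.3 to 35.8 CPM (log2 fold change 0.56, adjusted p = 6.2e-05). XIAP, an inhibitor of caspases, was not called in KO cells (log2 fold change -0.44, adjusted p = 5.2e-05).

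The death receptor arm, which reaches the mitochondrion through cleavage of BID, had 1 of 13 tested genes called after hypoxia, beside 7.26% of all genes, and 4 of 13 in KO cells, beside 9.67%. TNFSF10, which encodes the ligand TRAIL, rose from 3.20 CPM in WT normoxia to 6.88 CPM in WT hypoxia (log2 fold change 1.09, adjusted p = 5.9e-05) and to 5.03 CPM in KO cells (0.65, adjusted p = 2.9e-04). In KO cells TNFRSF1A, a TNF receptor, rose from 242 to 362 CPM (log2 fold change 0.58) and the TRAIL decoy receptor TNFRSF10C rose from 0.408 to 1.08 CPM (1.41). FAS, the receptor of FAS ligand, fell from 19.3 to 10.8 CPM (-0.84, adjusted p = 9.1e-07). The TRAIL receptors TNFRSF10A and TNFRSF10B had log2 fold changes of 0.38 and 0.40 in KO cells (adjusted p = 2.5e-04 and 3.5e-06, edgeR). They were not called against WT normoxia because these sizes lay under the limit on the fold change. By the adjusted p alone, 6 genes of this arm were higher and 3 lower in KO cells, beside 14.9% and 15.4% of all genes. Between KO cells and WT hypoxia, 4 of 13 genes of this arm were called higher, beside 7.08% of all genes: TNFRSF10A, TNFRSF10B, TNFRSF10C and TNFRSF1A. In the same comparison 2 were called lower, FAS and TNFRSF10D, beside 7.88% of all genes. TNFRSF10B was near the limit there, at 0.51, and fell under it with upper-quartile scaling (0.48), without hypoxia replicate 2 (0.48) and without KO replicate 3 (0.50).

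The last list held 21 genes whose products bind, modify or turn over the members, such as the 14-3-3 genes and the ubiquitin ligase genes HUWE1 and FBXW7. None was called in any of the 3 comparisons, beside 7.26% of all genes after hypoxia and 9.67% in KO against WT cells. Between KO cells and WT hypoxia the share of all genes was 15%. By the adjusted p alone, 0 were higher and 10 lower after hypoxia (11.6% and 12% of all genes were), and 0 higher and 7 lower in KO cells (14.9% and 15.4%). Between KO cells and WT hypoxia the split was 7 higher and 2 lower (17.1% and 17.8%). FBXW7, which marks MCL1 for degradation, had the lowest log2 fold change after hypoxia (-0.43, adjusted p = 0.00199), and the level of MCL1 transcript is given above. The list's median log2 fold change was -0.17 after hypoxia and -0.09 in KO cells, beside 0.01 over all genes tested in each, and 0.12 between KO cells and WT hypoxia, beside -0.02.

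**Figure D5:**
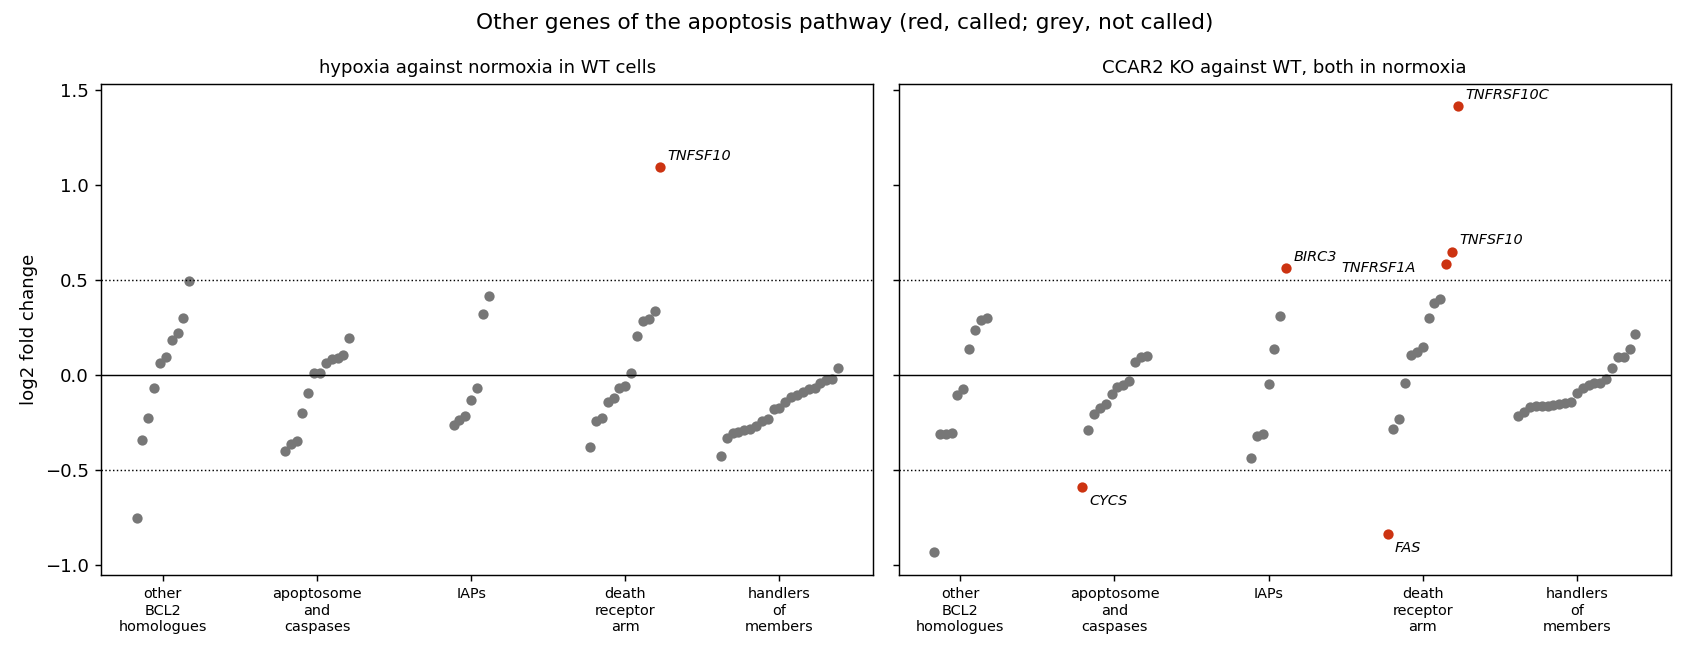
Log2 fold change of each tested gene of the 5 lists after hypoxia (left) and in KO cells (right). Each point is 1 gene, sorted within its list, with called genes in red and dotted lines at a size of 0.5; TNFSF10 alone is called on the left, and 6 genes are called on the right.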

How the data were processed

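RNA-seq of 12 MDA-MB-231 libraries was analysed, 4 each of WT normoxia, WT hypoxia and CCAR2 KO normoxia, grouped by the labels. The authors deposited 1 table of estimated counts per gene as whole numbers. Their methods describe alignment with Hisat2 (v2.2.1) and assembly with StringTie (v2.1.4), while the submitters' processing notes name HISAT2, SAMtools and featureCounts; how coverage became counts, the genome build and the annotation are not given in the sources used here. The labels and the methods also name different extraction and library kits, and neither states a strand setting. Reads of overlapping genes may thus be divided unequally between libraries.

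Genes were kept by edgeR's filterByExpr within each comparison, scaled by TMM and tested with edgeR's quasi-likelihood test (edgeR 4.0.16, R 4.3.3) on the 8 libraries compared. P-values were adjusted by the Benjamini-Hochberg method over all genes tested. CPM used TMM-adjusted sizes of all 12 libraries. Levels per length used merged exons of GENCODE v29, and promoter windows came from RefSeq (GRCh38.p14). Gene members, lists and thresholds were chosen with earlier results of these data known. Genes were named if they were members, if a listed gene was called, or if they were needed as a check or to describe a list; those of the last kind were chosen after their values were seen. Alternatives were DESeq2 1.42.0, limma-voom (limma 3.58.1), RLE and upper-quartile scaling, other filters and thresholds, 1 fit of all libraries, the replicate block and leaving out each library. Simulated data for the KO comparison held 21410 genes, 200 of them changed. On these, edgeR recovered 56% of genes changed by 1 on the log2 scale and 87% of those changed by a larger fold, with 7 false calls. The called changes of BCL2 and AVEN in KO cells were smaller than both, and recovery at their size was not simulated. No molecular identifiers are described, so counts are reads and not molecules. Replicates differed by more than counting noise (chi-square per degree of freedom 17.1 to 135), so no pair was treated as 1 library.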

Additional observations from a re-analysis of the deposited data

Results flagged for a closer look

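Libraries were screened gene by gene within each group for a value set apart from the other 3 by Dixon's ratio, over 60 groups of 4 (the 10 members and the 10 pathway genes called in a comparison), in which chance gives about 3. WT hypoxia replicate 2 was set apart for 2 genes. For CYCS its level of 182 CPM lay above the other 3 libraries at 132 to 135 CPM (ratio 0.941). For TNFRSF1A its level of 236 CPM lay above the other 3 at 215 to 216 CPM (ratio 0.974). Neither gene was called after hypoxia, and the calls of both in KO against WT cells do not use that library. The call of TNFRSF1A in KO cells against WT hypoxia does use it; the log2 fold change was 0.71 with it and 0.74 without it. No member was set apart in this way.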

How the results depend on the processing

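The counts of members called moved with the threshold. Without a limit on the fold change, 2 members were lower after hypoxia in place of 0, 3 were higher in KO cells in place of 1, and 3 were higher and 1 lower in KO cells against WT hypoxia in place of 1 and 0. With a limit of 1, 0 were lower in KO cells in place of 2 and 0 higher against WT hypoxia in place of 1, while BMF was still called in KO against WT cells. The calls of BMF, BCL2 and AVEN in KO cells held under the other 17 alternatives, with BMF between 0.78 and 1.29 on the log2 scale.

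Values near 0 changed sign, given here on the log2 scale. With upper-quartile scaling MCL1 was 0.0275 after hypoxia and 0.0063 in KO cells, and BCL2L11 was -0.0175 in KO cells against WT hypoxia. MCL1 in KO cells against WT hypoxia was 0.0037 with DESeq2 or RLE scaling and 0.0041 with all libraries in 1 fit. Over single libraries left out, MCL1 ran from -0.0381 to 0.0044 after hypoxia, from -0.0324 to 0.0120 in KO cells and from -0.0273 to 0.0254 in KO cells against WT hypoxia, and BCL2L11 ran from -0.0211 to 0.0610 in the last. BMF after hypoxia ran from -0.13 (without WT normoxia replicate 1) to 0.39 (without WT normoxia replicate 2), and BCL2L2 in KO cells from -0.0010 to 0.0765.

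The labels do not say that a replicate number marks a shared culture or day. Correlations of same-numbered deviations were 0.0489 to 0.150 for hypoxia, over 0.1 for 3 of 4 numbers, and -0.212 to 0.0665 for KO against WT. Libraries matched their own number best in 4 of 4 cases for hypoxia, a hint of pairing from the data, and in 0 of 4 for KO against WT. Between KO cells and WT hypoxia 3 of 4 did, with correlations of -0.0177 to 0.0903. Since not every number passed 0.1, the block was kept as an alternative. With the replicate block the members called did not change; BMF in KO cells was 1.14, and all genes called numbered 1183 higher and 324 lower after hypoxia, against 1270 and 312.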
